A study of Mus musculus with 6 samples.

Results

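The 43 genes described here encode the machinery that copies DNA in S phase. They were listed by name as replication factors, a choice made with earlier results of these data known. Each gene was read from its brightest probe set, by mean signal over the 6 arrays, among those annotated with that gene symbol alone. Of the 43 genes, 42 had such a probe set, and all 42 were among the 11611 genes of the series with enough signal to be tested. Chaf1a, a subunit of a histone chaperone, is annotated on a probe set that carries several symbols and was not analysed here.

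Expression had been measured on 6 Affymetrix arrays of 45101 probe sets, 1 sample to an array. 3 samples were granulosa cell tumors from Smad1/5/8 mutant mice, called independent by the design text. Smad1, Smad5 and Smad8 (now Smad9) are transcription factors that carry bone morphogenetic protein signals into the nucleus, and the sources used here do not give the mutant alleles, nor the strain, age or number of tumor mice. The other 3 samples were granulosa cells, the somatic cells around the oocyte, isolated from wild-type C57BL/6J;129S5/SvEvBrd females aged 21 days. Each of these samples pooled 2 to 3 females, which had received PMSG, a gonadotropin preparation that drives follicle growth, 44 to 46 hours before collection. No hormone treatment is recorded for the tumors, which were whole tissue held in RNAlater before freezing. The processing software also differed, with GCOS for tumors and MAS5 for wild-type samples. Genotype, tissue preparation and storage, hormone treatment and processing software therefore differ together and cannot be told apart. Age and pooling are given for the wild-type samples only, and their part cannot be told apart either.

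DNA replication is prepared in G1, when the origin recognition complex, Cdc6 and Cdt1 load the ring-shaped Mcm2-7 helicase onto DNA, a step called licensing. At the start of S phase the helicase is activated by Cdc45 and the GINS complex, polymerase alpha with its primase starts each strand, and polymerases delta and epsilon extend it, held on the template by the sliding clamp PCNA. Ribonucleotide reductase and thymidylate synthase supply the building blocks. Many of these genes are transcribed at the G1 to S boundary under E2F factors. Granulosa cells of growing follicles divide rapidly, and gonadotropin priming is known to raise their proliferation.

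A promoter table built from RefSeq (build GRCm38.p6) held windows from 250 bases before to 50 bases after the annotated start for 36 of the 43 genes, 42 windows in all. The E2F motif, searched as TTCCCGC and TTGGCGC on both strands with overlapping matches counted once, was found in 22 of the 42 windows (52.4%), against 11.9% of the 12049 windows of all genes tested on the arrays. The CCAAT motif, bound by NF-Y, was found in 59.5% of the members' windows and in 37.4% of those of all tested genes. The motif TTTGAA, the core of the element called CHR in promoters of mitosis genes, was found in 11.9% of both. In 24 windows of 22 mitosis genes these shares were 20.8% for E2F, 79.2% for CCAAT and 70.8% for TTTGAA. A match describes the letters only, and the median GC content was 58.8% in members' windows and 61.0% in windows of all tested genes. 4 windows are shown because the expression results below turn on these genes: Mcm3, Mcm10 and Rfc5 were lower in tumors, and Mcm6, a partner of Mcm3 in the same helicase ring, was not called. Capitals mark E2F matches.
Mcm3, chr1:20820263-20820562, minus strand: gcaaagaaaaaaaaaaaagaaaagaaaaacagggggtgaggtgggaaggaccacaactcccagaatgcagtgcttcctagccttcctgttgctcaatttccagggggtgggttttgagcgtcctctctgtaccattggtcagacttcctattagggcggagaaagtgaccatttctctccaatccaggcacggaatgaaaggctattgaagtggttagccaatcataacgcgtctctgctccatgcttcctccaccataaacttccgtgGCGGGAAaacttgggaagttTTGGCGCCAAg
Mcm6, chr1:128359656-128359955, minus strand: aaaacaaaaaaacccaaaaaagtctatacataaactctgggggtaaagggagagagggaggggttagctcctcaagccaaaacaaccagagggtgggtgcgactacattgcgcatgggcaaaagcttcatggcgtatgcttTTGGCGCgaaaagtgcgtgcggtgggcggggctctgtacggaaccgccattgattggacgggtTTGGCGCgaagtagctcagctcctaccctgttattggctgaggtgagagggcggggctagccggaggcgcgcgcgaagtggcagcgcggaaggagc
Mcm10, chr2:5012742-5013041, minus strand: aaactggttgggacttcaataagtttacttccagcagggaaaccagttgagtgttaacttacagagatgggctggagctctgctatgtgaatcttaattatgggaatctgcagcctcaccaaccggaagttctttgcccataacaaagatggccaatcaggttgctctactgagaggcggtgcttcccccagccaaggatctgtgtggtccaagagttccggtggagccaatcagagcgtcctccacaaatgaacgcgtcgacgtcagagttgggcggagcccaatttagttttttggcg
Rfc5, chr5:117388974-117389273, minus strand: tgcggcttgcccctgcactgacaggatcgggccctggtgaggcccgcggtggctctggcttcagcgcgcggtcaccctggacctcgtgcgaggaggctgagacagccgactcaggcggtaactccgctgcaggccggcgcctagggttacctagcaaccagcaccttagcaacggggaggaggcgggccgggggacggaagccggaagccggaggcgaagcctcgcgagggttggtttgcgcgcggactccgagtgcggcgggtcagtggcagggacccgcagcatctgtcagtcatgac
The windows of Mcm3 and Mcm6 held 2 E2F matches each, and those of Mcm10 and Rfc5 held 0. The Mcm10 window ends with the start of the TTGGCGC motif, and a match running past its edge would not be found.

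**Figure D1:**
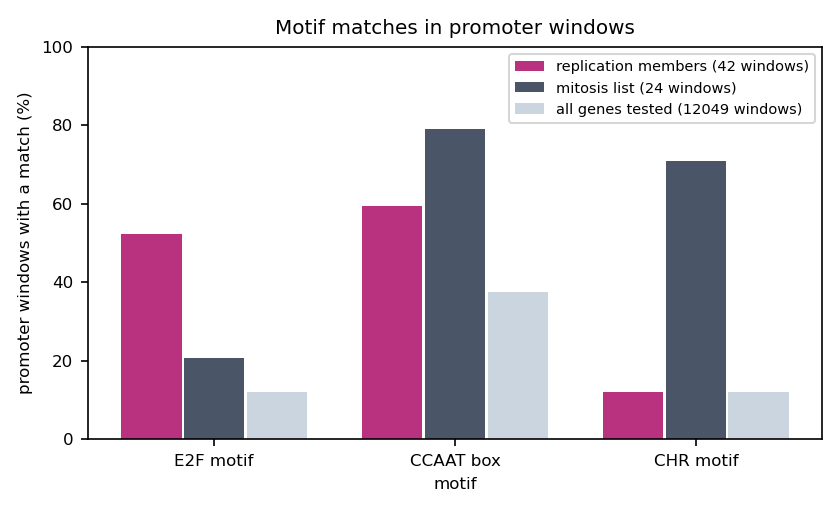
Share of promoter windows of 300 bases with at least 1 match (vertical axis, percent) to the E2F motif, the CCAAT box and the CHR motif, for the replication genes, the mitosis list and all genes tested on the arrays. E2F matches were most frequent in windows of replication genes (52.4%) and CHR matches in windows of mitosis genes (70.8%).

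Before the results on replication genes, a few facts of the series bear on them. Across the tested genes, arrays correlated at 0.938 to 0.951 between tumors, at 0.964 to 0.979 between wild-type samples and at 0.84 to 0.867 across the groups. Granulosa markers were present in the tumors: 11 of 12 were on the array under their own symbol, none of these 11 was below a signal of 100 on all 3 tumor arrays, and their summed signal was 65251 to 82283 in tumors and 156478 to 180582 in wild-type samples. 5 of the 11 fell (Fshr, Inhba, Inhbb, Fst and Nr5a1) and 2 rose (Amh and Wt1). Much of the difference between the sums came from Inhba and Inhbb. These averaged 687 and 2139 in tumors, against 26368 and 33400 in wild-type samples. Foxl2, Gata4, Nr5a2 and Inha were not called, at log2 fold changes of -0.51, -0.50, -0.49 and -0.40. Markers of other cell types were higher in tumors: all 10 macrophage, all 6 smooth muscle and all 8 fibroblast markers rose, as did 5 of 8 endothelial markers. Their summed signals were 13338 to 16322 in tumors against 2170 to 2627 in wild-type samples for macrophages, and 43111 to 67355 in tumors against 13375 to 16328 in wild-type samples for fibroblasts. For smooth muscle the sums were 15168 to 27888 in tumors and 3988 to 5258 in wild-type samples, with Des below 100 on all wild-type arrays. For endothelium they were 4885 to 11059 in tumors and 1340 to 1602 in wild-type samples, with Vwf below 100 on all wild-type arrays. Of 7 oocyte markers, Zp1, Zp2, Zp3, Bmp15 and Dppa3 were below 100 on all tumor arrays, Bmp15 also on all wild-type arrays, and 5 of the 6 tested fell. The sums were 426.8 to 706 in tumors and 994 to 1618 in wild-type samples. Of 5 theca markers, 4 were tested: Gli1, below 100 on all wild-type arrays, and Ptch1 rose and Cyp17a1 fell, with sums of 8065 to 28127 in tumors and 5682 to 8988 in wild-type samples. Des, Vwf, Gli1, Zp1, Zp2, Zp3 and Dppa3 were bright enough to be tested only through the group where they were high. Their calls could therefore take only 1 direction and do not test it. None of the 5 lymphocyte markers measured was bright enough to be tested, with sums of 179.6 to 518 in tumors and 97.4 to 208.7 in wild-type samples. The part of these cell types in the results below was not tested, and in tissue RNA fewer dividing cells and less transcript per cell cannot be told apart.

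Tumors were compared with wild-type cells, gene by gene. 5 of the 42 fell in the tumors: Gins1 and Mcm10, both needed to activate the helicase, Mcm3 of the helicase itself, Pole, the catalytic subunit of the leading-strand polymerase, and Rfc5, a subunit of the complex that loads PCNA. None rose, and 37 did not pass. The test was limma on log2(signal + 32) with Benjamini-Hochberg adjustment over all 11611 genes, called at an adjusted p under 0.05. Of all tested genes, 12.6% were called lower by the same rule, so the members' 11.9% lies near the background. 14.5% of all genes were called higher, against 0 members, of which 0 also had an unadjusted p under 0.05 in that direction. The members leaned to lower values: 36 of the 42 had a log2 fold change below 0, against 50.4% of all tested genes, and their median was -0.31, against 0.00 over all genes. The members' log2 fold changes ranged from -1.19 to 0.39. In 12 of the 42, all 3 tumors lay below all 3 wild-type samples (28.6%, against 22.6% of all genes), and in 0 did all tumors lie above (23.7% of all genes).

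The count of called members changed when single samples were left out. In limma it was 0 when wild-type replicate 1 was left out and 0 when wild-type replicate 3 was (5 and 7 members at an unadjusted p under 0.05 and lower in tumors), 1 without tumor 1 and 3 without tumor 2. Calls over all genes also became fewer, with 662 lower in place of 1468 without wild-type replicate 1 and 880 when wild-type replicate 3 was left out, and 1692 and 1897 of the 11611 genes lower at an unadjusted p under 0.05. Fold changes moved less: without wild-type replicates 1 and 3 that of Gins1 was -1.17 and -1.20, and that of Mcm3 -0.73 and -0.90. Scaling also moved the count of called members: 1 was called lower with arrays scaled to their medians, and 41 with arrays scaled to the bacterial hybridisation controls. Scaling to the controls shifted the median of all genes to -0.98 and turned the split of all calls from 1468 lower and 1686 higher to 7544 lower and 416 higher. With the median scaling that split was 916 lower and 1714 higher. Relative to the median of all genes, the members' median was -0.32 under the hybridisation control scaling and -0.31 under the median scaling, with 36 of 42 below the median of all genes under both. Each of these scalings divides an array by 1 factor, which moves all genes nearly alike. These relative values could therefore hardly change, and they do not test the lean. Relative to 0, 32 of 42 were lower with the median scaling.

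**Figure D2:**
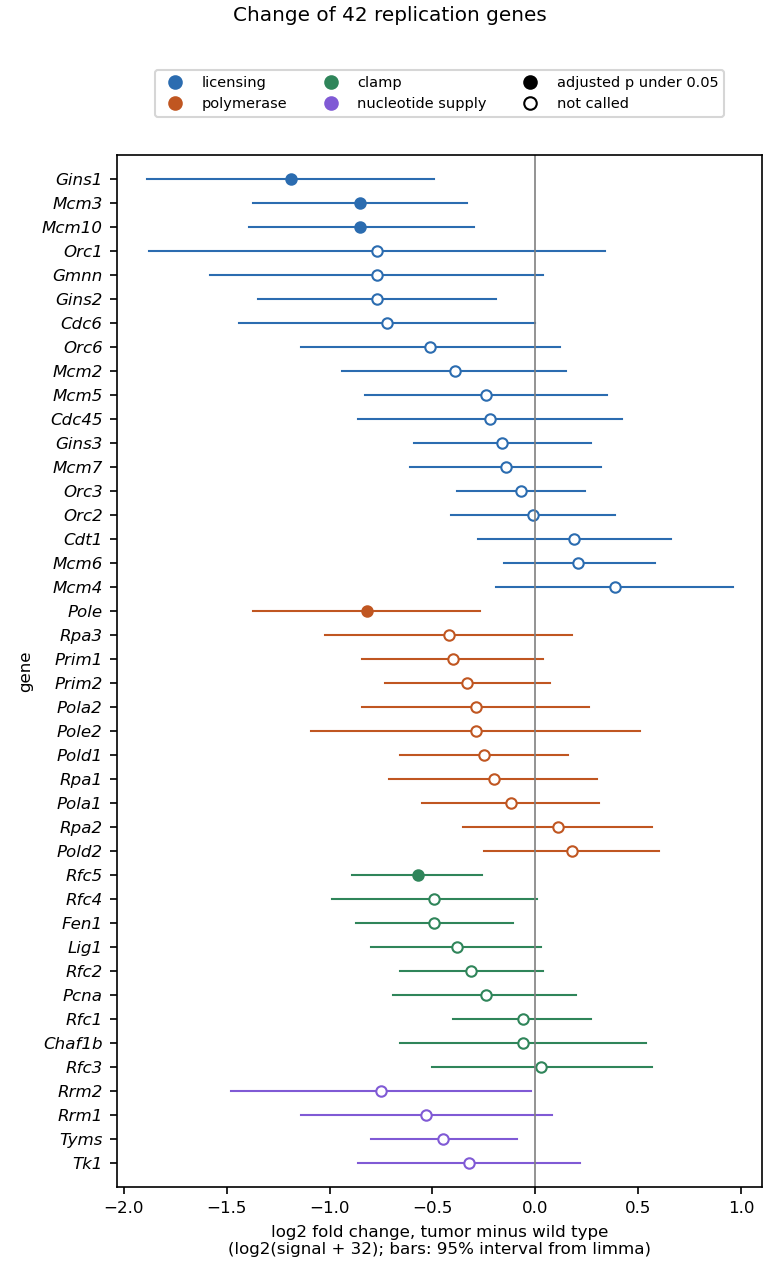
Log2 fold change of tumors minus wild type for the 42 replication genes (horizontal axis) with limma's 95% interval, in 4 role groups. Filled points (Gins1, Mcm3, Mcm10, Pole and Rfc5) had an adjusted p under 0.05, and 36 of the 42 points lie below 0.

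The tumors differed from each other in these genes. Tumor 1 had the lowest signal of the 3 tumors in 38 of the 42 members (90.5%), against 35.2% of all tested genes. Tumor 3 had the highest in 28 (66.7%, against 37.7% of all genes). Against the mean of the wild-type samples, the members' median difference was -0.64 on the log2(signal + 32) scale in tumor 1, -0.24 in tumor 2 and -0.12 in tumor 3, while over all genes it was at most 0.01 in size in each tumor. 36 members in tumor 1 lay below all 3 wild-type samples (85.7%, against 38.1% of all genes), 23 in tumor 2 (54.8%, against 36.8%) and 14 in tumor 3 (33.3%, against 37.4%). On the signal + 32 scale, tumor 3 exceeded tumor 1 by a median of 1.48-fold over the members and 1.01-fold over all genes. The hybridisation controls also differed, at 0.036, 0.656 and 0.883 in tumors 1, 2 and 3 (log2, relative to the mean of all arrays). The order of the tumors under the hybridisation control scaling was not examined. Marker sums did not share 1 order over the tumors. In tumors 1, 2 and 3 the granulosa sum was 82283, 78191 and 65251, and the macrophage sum 16322, 13802 and 13338, both highest in tumor 1. The endothelial sum was 4885, 11059 and 6218, and the theca sum 8065, 19421 and 28127, both lowest in tumor 1. Most of the theca sum was Ptch1 alone, at 6060, 17963 and 27114. The other tested theca markers, Cyp17a1, Gli1 and Star, ran the opposite way and were highest in tumor 1. The fibroblast sum was 59243, 67355 and 43111, and the smooth muscle sum 25742, 27888 and 15168, both lowest in tumor 3. The part of these cell types in the order of the tumors was not tested. Without tumor 1, the members' median log2 fold change was -0.15, 31 of 42 were below 0, and Gins1 was the 1 member called. Mcm5, Mcm7, Cdc45, Pole2 and Chaf1b then had log2 fold changes of 0.02, 0.05, 0.03, 0.02 and 0.23, where with all samples their values lay below 0.

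The wild-type samples also differed. Wild-type replicate 2 was the lowest of its group in 33 of the 42 members (78.6%, against 34.0% of all genes), and wild-type replicate 1 the highest in 29 (69.0%, against 26.2%). The median SD of a member between replicates was 0.34 in tumors and 0.21 in wild-type samples on the log2 scale, against 0.24 and 0.19 over all genes. Without wild-type replicate 2, the members' median log2 fold change was -0.42 and 4 were called lower: Rfc5, and Gins2, Fen1 and Rrm1, which were not called with all samples (limma adjusted p = 0.0404, 0.0286, 0.0473 and 0.0265). Rfc3 then had a log2 fold change of -0.16 in place of 0.03. Actb control probe sets near the 3' end, set against those near the 5' end as a gauge of RNA integrity, gave a log2 ratio of 0.57 in tumor 1, 0.89 in tumor 2 and 0.97 in tumor 3, and 0.33, 0.67 and 0.34 in wild-type replicates 1, 2 and 3. The corresponding Gapdh ratio averaged -0.365 ± 0.113 in tumors and -0.391 ± 0.0653 in wild-type samples (SD, n = 3 each). The link between these ratios and the members' signals was not tested. The plot of the members on each array shows tumor 1 as the column with the lowest values.

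**Figure D3:**
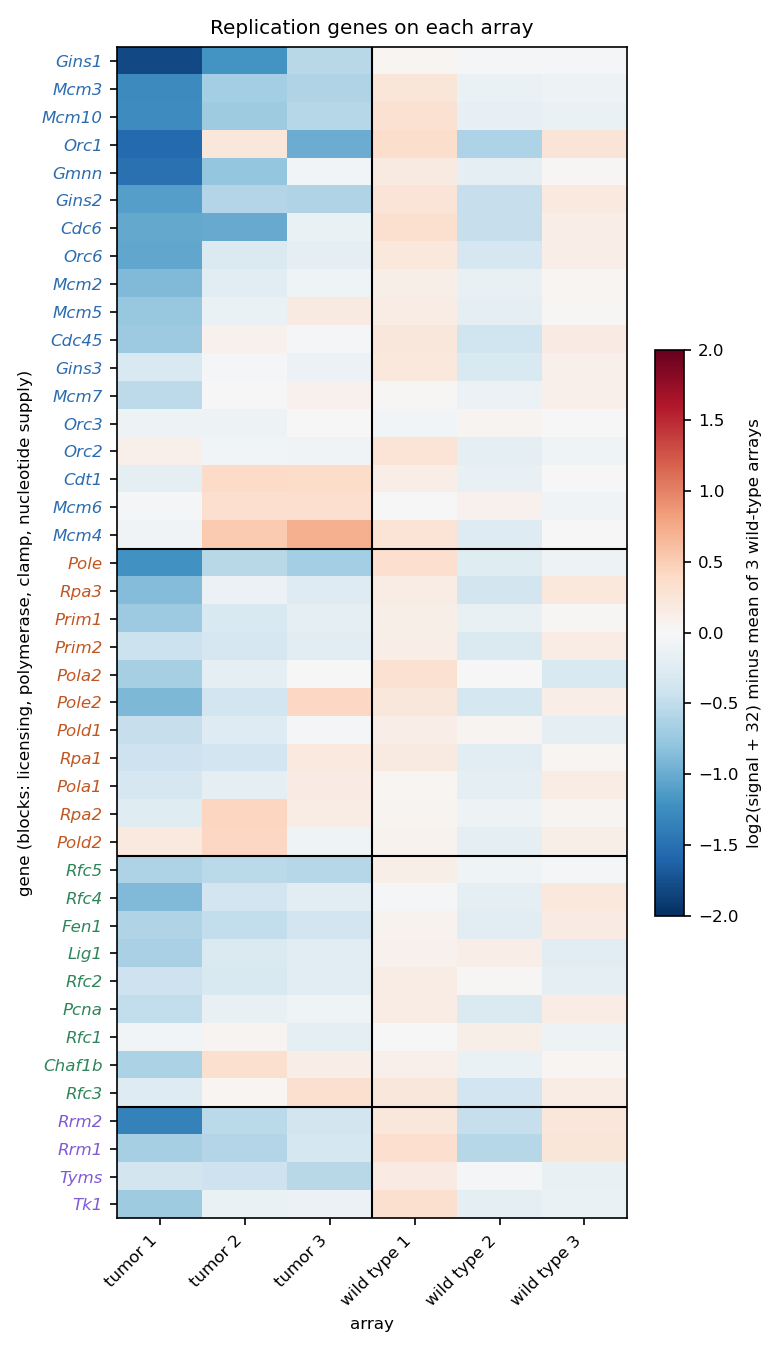
Each cell gives log2(signal + 32) of 1 gene (row) on 1 array (column) minus the gene's mean over the 3 wild-type arrays, with blue for lower and red for higher. Rows are grouped by role. Tumor 1 is the lowest tumor in 38 of the 42 rows, and Mcm4, Mcm6 and Cdt1 are above the wild-type mean in tumors 2 and 3.

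In licensing and helicase activation, 3 of 18 members fell, none rose and 15 were not called (16.7% lower, against 12.6% of all tested genes), at a median log2 fold change of -0.32. Gins1, a subunit of the GINS complex that joins Cdc45 and Mcm2-7 into the working helicase, read 241.5, 384.9 and 617.2 in the tumors, against 955, 912.1 and 910.7 in the wild-type samples. The wild-type values lay close together and every tumor lay well below them. Its log2 fold change was -1.19 (95% interval -1.89 to -0.49, SE 0.30, limma adjusted p = 0.0254), the largest among the members. The call was lost without tumor 2 (adjusted p = 0.0615) and without wild-type replicates 1, 2 or 3 (adjusted p = 0.0837, 0.067 and 0.0696), and the change kept its direction in all 17 alternatives.

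Gins2 read 334.7, 491.9 and 487.4 in tumors, against 916.4, 542.8 and 872.6 in wild-type samples. The groups did not overlap, but the change missed the threshold (log2 fold change -0.77, SE 0.25, limma adjusted p = 0.0579), and the other passing probe set of Gins2 gave -0.18. Gins3 overlapped between the groups, at 185 to 228.9 in tumors and 185 to 279.9 in wild-type samples (log2 fold change -0.16, SE 0.18). Gins4, the remaining subunit and not one of the 43, fell by 0.55 (SE 0.14, limma adjusted p = 0.0288). Within each array, log2(signal + 32) of Gins1 minus that of Gins3 was 0.80 ± 0.54 in tumors and 1.83 ± 0.25 in wild-type samples (SD, n = 3 each), a difference of -1.03. The pair was chosen after its values were seen, and the difference is a description with no test.

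Mcm10, which helps to start unwinding at licensed origins, read 193.6, 296.7 and 331 in tumors, against 634.6, 447.3 and 459 in wild-type samples. The groups did not overlap, and Mcm10 fell by 0.85 (SE 0.23, limma adjusted p = 0.0335). Leaving out any sample except tumor 3 ended the call, with adjusted p between 0.0588 and 0.119. Cdc45, the third part of the active helicase, overlapped between the groups, with means of 422 ± 124 in tumors and 493 ± 118 in wild-type samples (SD, n = 3) and a log2 fold change of -0.22 (SE 0.27).

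Of the 6 subunits of the Mcm2-7 ring, which assemble in equal numbers, Mcm3 alone passed. It read 1267, 1919 and 2040 in tumors, against 3660, 2813 and 2888 in wild-type samples. Mcm3 was lower in every tumor than in any wild-type sample and fell by 0.85 (SE 0.22, limma adjusted p = 0.0291). The call was lost without tumor 1 (adjusted p = 0.0531) and without wild-type replicates 1, 2 or 3 (adjusted p = 0.107, 0.0566 and 0.0675). Its brightest probe set is of the kind marked s, whose probes can match several transcripts. Its 3 other passing probe sets gave log2 fold changes of -0.67, -0.87 and -0.73, and the second of these also passed when each probe set was tested (limma adjusted p = 0.0342). Mcm4 read 2017, 3071 and 3489 in tumors, against 2560, 1769 and 2110 in wild-type samples. Tumors 2 and 3 exceeded all wild-type samples while tumor 1 lay within their range, and the log2 fold change of 0.39 did not pass (SE 0.24, limma adjusted p = 0.275). Without tumor 1 it was 0.62 (limma adjusted p = 0.0792).

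Mcm6 likewise had values above the wild-type range in tumors 2 and 3, at 3967, 5066 and 5069 in tumors against 3987, 4246 and 3838 in wild-type samples (log2 fold change 0.21, SE 0.16, limma adjusted p = 0.342). The second passing probe sets of Mcm4 and Mcm6 gave 0.55 and 0.45. None of these differences passed, and scaled to the hybridisation controls all 42 members, these 2 included, had values below 0. Mcm2 read 1266, 2022 and 2230 in tumors, against 2560, 2116 and 2428 in wild-type samples, and its groups overlapped through tumor 3 and wild-type replicate 2 (log2 fold change -0.39, SE 0.23, limma adjusted p = 0.244). Mcm5 and Mcm7 had log2 fold changes of -0.24 and -0.14 (SE 0.25 and 0.20).

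Within each array, log2(signal + 32) of Mcm3 minus that of Mcm4 was -0.66, -0.67 and -0.76 in tumors, against 0.51, 0.66 and 0.45 in wild-type samples. The 3 tumors agreed closely on this measure, although their Mcm3 and Mcm4 signals differed from tumor to tumor. The mean difference between the groups was -1.24. This pair too was chosen after its values were seen, so the difference is a description with no test.

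Of the origin recognition subunits, none passed. Orc2 and Orc3 had log2 fold changes of -0.01 (95% interval -0.41 to 0.39) and -0.07 (95% interval -0.38 to 0.24). Orc1, a subunit whose gene is known to be controlled by E2F, was dim and scattered, at 42.03, 222.7 and 77.25 in tumors against 245.1, 110.2 and 227.6 in wild-type samples (log2 fold change -0.77, SE 0.47). Orc6 had a log2 fold change of -0.51 (SE 0.27). Cdc6, which loads the helicase with Cdt1, averaged 275 ± 115 in tumors and 465 ± 131 in wild-type samples (SD, n = 3; limma adjusted p = 0.126). Cdt1 leaned the other way, at 1939 ± 421 in tumors and 1678 ± 163 in wild-type samples (log2 fold change 0.19, SE 0.20). Gmnn encodes geminin, the inhibitor that binds Cdt1 and prevents a second round of licensing. It read 573.4, 965.4 and 1601 in tumors, against 1880, 1444 and 1699 in wild-type samples. Tumor 3 exceeded tumor 1 by 2.7-fold on the signal + 32 scale, the widest such ratio among the members, and the change did not pass (log2 fold change -0.77, SE 0.34, limma adjusted p = 0.14).

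**Figure D4:**
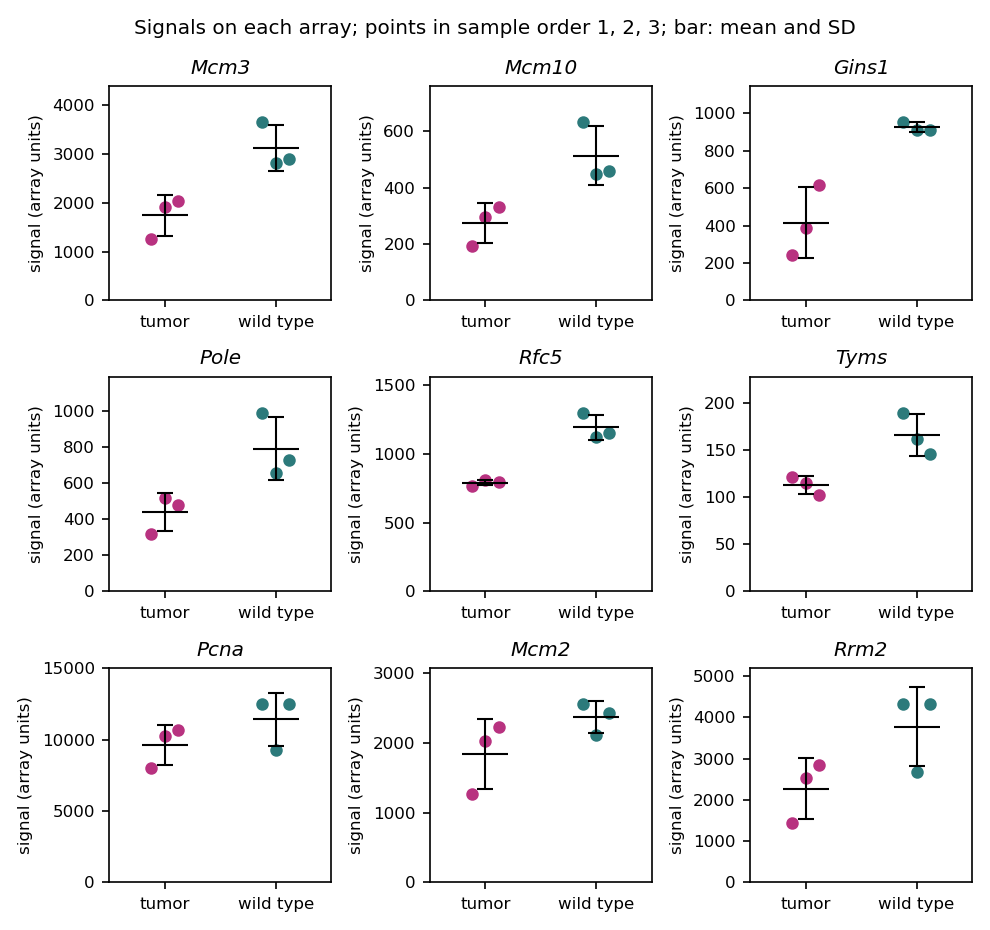
Signal in array units (vertical axis, from 0) for 9 replication genes in tumors and wild-type samples. Each point is 1 array, and the bar gives mean and SD (n = 3). Tumors lie below all wild-type samples in Mcm3, Mcm10, Gins1, Pole, Rfc5 and Tyms, and the groups overlap in Pcna and Mcm2 and through tumor 3 in Rrm2.

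In the polymerase, primase and RPA group, 1 of 11 members fell, none rose and 10 were not called (9.09% lower, against 12.6%), at a median log2 fold change of -0.29. Pole read 318.9, 519.5 and 478 in tumors, against 991.6, 658.4 and 728.9 in wild-type samples. The groups did not overlap, and Pole fell by 0.82 (SE 0.23, limma adjusted p = 0.0401). The call was lost without any sample except tumor 2, with adjusted p up to 0.134. Its accessory subunit gene Pole2 had a log2 fold change of -0.29 (SE 0.34), with tumor 3 at 1043 above every wild-type sample and tumors 1 and 2 at 400.9 and 590.5 below them.

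Polymerase alpha and its primase begin each strand with a short primer. Prim1, the catalytic primase subunit, read 947.5, 1290 and 1407 in tumors, against 1740, 1440 and 1620 in wild-type samples. The groups were separate by a narrow margin, and the change did not pass (log2 fold change -0.40, SE 0.19, limma adjusted p = 0.153). Prim2, Pola1 and Pola2 had log2 fold changes of -0.33, -0.12 and -0.29 with overlapping groups. Polymerase delta, which copies the lagging strand, was represented by Pold1 at -0.25 (SE 0.17) and Pold2 at 0.18 (SE 0.18). The genes of RPA, which coats single-stranded DNA, had log2 fold changes of -0.20 for Rpa1, 0.11 for Rpa2 and -0.42 for Rpa3, and none passed.

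Of the 9 measured genes of the clamp, its loader, lagging-strand maturation and chromatin assembly, 1 fell, 0 rose and 8 did not pass (11.1% lower, against 12.6% of all tested genes), with a median log2 fold change of -0.31. Rfc5 read 769.1, 808.1 and 792.1 in tumors, against 1299, 1125 and 1155 in wild-type samples. The 3 tumors lay within a narrow range, all below the wild-type samples, and Rfc5 fell by 0.57 (SE 0.13, limma adjusted p = 0.0205), the smallest p among the members. Its call was lost without tumor 1 (log2 fold change -0.56, limma adjusted p = 0.051), tumor 2 or wild-type replicates 1 or 3, with adjusted p up to 0.0939. The other loader genes did not pass: Rfc4 at -0.49 (limma adjusted p = 0.129), Rfc2 at -0.31, Rfc1 at -0.06 and Rfc3 at 0.03. In Rfc2 and Rfc4 all tumors were nevertheless below all wild-type samples.

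Pcna, the sliding clamp itself and a common marker of proliferating cells, read 8027, 10230 and 10647 in tumors, against 12522, 9296 and 12497 in wild-type samples. Tumors 2 and 3 exceeded wild-type replicate 2, and the log2 fold change of -0.24 had a 95% interval of -0.69 to 0.20 (SE 0.19, limma adjusted p = 0.375). Fen1, the nuclease that trims Okazaki fragments, read 992.8, 1075 and 1164 in tumors, against 1590, 1290 and 1710 in wild-type samples. Its groups did not overlap, but its brightest probe set missed the threshold (log2 fold change -0.49, SE 0.16, limma adjusted p = 0.0624). The second Fen1 probe set passed when each probe set was tested (log2 fold change -0.68, limma adjusted p = 0.0188). Lig1, the ligase that joins the fragments, had a log2 fold change of -0.38 (SE 0.18) without overlap between the groups. Chaf1b, a chromatin assembly subunit, had one of -0.06 (SE 0.26).

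Of the 4 nucleotide supply genes, 0 passed, and Tyms and Rrm2 had an unadjusted p under 0.05 in limma, as had 19.1% of all tested genes in the same direction. All 4 had values below 0, with a median log2 fold change of -0.49. Tyms, thymidylate synthase, was dim, at 121.2, 115.2 and 102.3 in tumors against 189.9, 162 and 145.6 in wild-type samples. The groups did not overlap (log2 fold change -0.45, SE 0.15, limma adjusted p = 0.065). Rrm2, the regulated subunit of ribonucleotide reductase that accumulates in S phase, read 1430, 2537 and 2850 in tumors, against 4325, 2669 and 4330 in wild-type samples. The groups overlapped through tumor 3 and wild-type replicate 2, and the change missed the threshold (log2 fold change -0.75, SE 0.31, limma adjusted p = 0.117). The 2 dimmer probe sets of Rrm2 had larger changes of -1.06 and -1.38 that passed when each probe set was tested (limma adjusted p = 0.0291 and 0.0135). The brightest Rrm2 probe set is of the kind marked x, some of whose probes match other sequences too. Rrm1, the other reductase subunit, had a log2 fold change of -0.53 (SE 0.26), and Tk1, the salvage thymidine kinase, one of -0.32 (SE 0.23).

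Over all 93 probe sets of the members, 76 passed the filter, and 61 of these 76 had a log2 fold change below 0. When each of 21001 probe sets was tested, 9 of the members' probe sets were called lower and 0 higher. The shares over all 21001 are not given here. In the same fit, of the probe sets standing for the 11611 genes, 1346 were called lower, 1580 higher, and 5849 had values below 0. Of the 42 standing for members, 5 were called lower and 0 higher. 25 members had more than 1 passing probe set, and in 8 of them (Cdt1, Mcm7, Orc2, Orc3, Rfc1, Rfc2, Rfc3 and Rpa2) the probe sets had both signs. None of these 8 was among the genes called.

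Other genes of the pathway came from lists of names outside the 43, also chosen with earlier results of these data known. Of 38 further replication factors, 11 fell (28.9%, against 12.6% of all tested genes). In this list 1 rose (2.63%, against 14.5%) and 26 did not pass, with a median log2 fold change of -0.30. Chtf18, part of an alternative clamp loader, read 70.3, 110 and 123.2 in tumors, against 221.4, 294.9 and 294.5 in wild-type samples (log2 fold change -1.19, SE 0.21, limma adjusted p = 0.00736). Recql4, a helicase of origin firing, read 120.8, 109.3 and 94.11 in tumors, against 300.3, 207.8 and 243.4 in wild-type samples (log2 fold change -1.0, SE 0.17). Both stood far below the wild-type samples in every tumor. Picked once their values were known, the origin-firing kinase gene Cdc7 and its activator Dbf4 fell by 0.87 and 0.62, the fork protection genes Clspn and Tipin by 0.85 and 0.65, and Pold4, a small polymerase delta subunit, rose by 0.83 (SE 0.21, limma adjusted p = 0.0261). The 11 became 6 without tumor 1, 7 without tumor 2, 2 without wild-type replicate 1 and 5 when wild-type replicate 3 was left out, and the call of Pold4 was lost without any sample except tumor 3, without the filter on low signal, and under the hybridisation control scaling. With the median scaling 6 were called lower, and with the hybridisation controls 35.

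Of 16 genes of S phase entry, 8 fell (50%, against 12.6% of all tested genes) and 8 did not pass. In this list 0 rose, against 14.5% of all tested genes (0 also at an unadjusted p under 0.05 in limma). The median log2 fold change was -0.72. E2f2, an activating E2F factor, read 78.46, 63.71 and 74.96 in tumors, against 353.2, 241.6 and 296.2 in wild-type samples. E2f2 was lower in tumors (log2 fold change -1.65, SE 0.17, limma adjusted p = 0.00131). All tumor signals lay below 100, so the size of this change is a rough value. E2f8, a repressing E2F factor, averaged 169 ± 31 in tumors and 420 ± 34.2 in wild-type samples (SD, n = 3; log2 fold change -1.18, SE 0.17, limma adjusted p = 0.00361). The S phase cyclin genes Ccne1, Ccne2 and Ccna2, chosen after their values were seen, fell by 0.72, 0.87 and 0.79, and their kinase gene Cdk2 by 0.70 (SE 0.16). With the median scaling 4 were called lower, and with the hybridisation controls 15. The count of 8 became 5 without tumor 2, 3 without wild-type replicate 1 and 5 when wild-type replicate 3 was left out.

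Of 17 nucleotide genes outside the 43, 4 rose (23.5%, against 14.5% of all tested genes). In this list 1 fell (5.88%, against 12.6%) and 12 did not pass, with a median log2 fold change of 0.14. Paics, an enzyme of purine synthesis, read 13110, 13195 and 13972 in tumors, against 5688, 6172 and 5750 in wild-type samples. Both groups were tight, and Paics rose by 1.19 (SE 0.13, limma adjusted p = 0.00149). Mthfd2, a mitochondrial enzyme of folate metabolism, fell by 1.01 (SE 0.19). The 4 that rose were 2 without tumor 2 and 2 without wild-type replicate 1, and under the hybridisation control scaling, which lowered the median of all genes, 0 were called higher and 11 lower.

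Of 24 mitosis genes, 15 fell (62.5%, against 12.6% of all tested genes). In this list 0 rose, against 14.5% of all tested genes (0 also at an unadjusted p under 0.05 in limma). All 24 had log2 fold changes below 0, against 50.4% of all tested genes, with a median of -0.83. Bub1 and Mad2l1, genes of the spindle checkpoint, fell by 1.68 and 1.61 (SE 0.21 and 0.29). Tumor 1 was the lowest tumor in 21 of these 24 genes and tumor 3 the highest in 22, the same tumors as in the replication genes. Against the wild-type mean, the median difference of the mitosis genes was -1.24 in tumor 1, -0.87 in tumor 2 and -0.49 in tumor 3. The difference between the mitosis and the replication genes was not tested. With the median scaling 10 were called lower, and with the hybridisation controls 24. The 15 calls became 8 without tumor 2, 6 without wild-type replicate 1 and 9 when wild-type replicate 3 was left out.

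**Figure D5:**
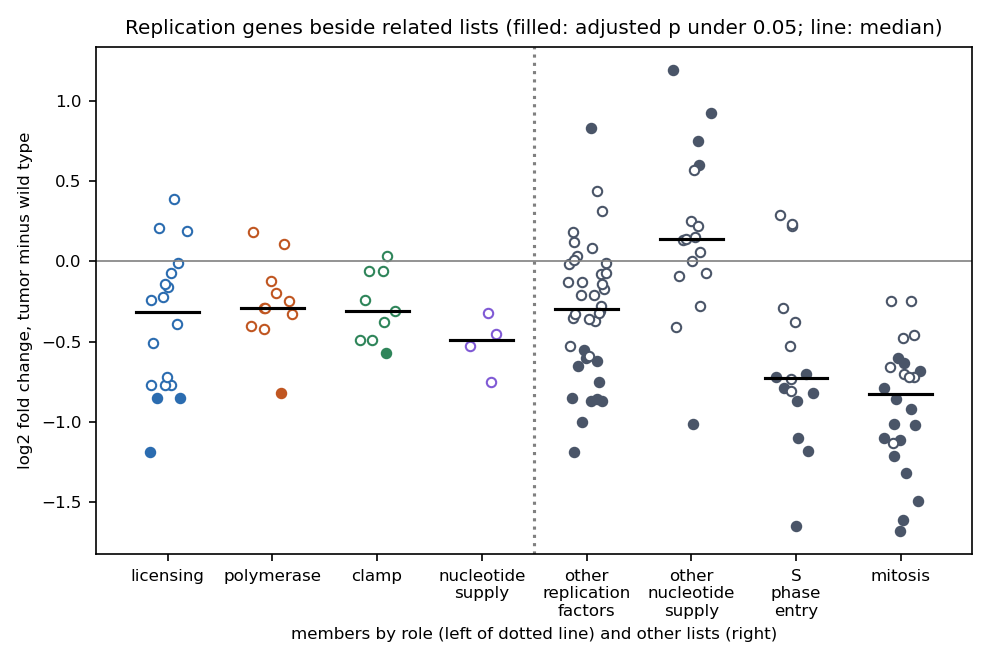
Log2 fold change of tumors minus wild type (vertical axis) for each replication gene by role, left of the dotted line, and for 4 other lists, right of it. Filled points had an adjusted p under 0.05, and horizontal lines are medians, which lie at -0.32, -0.29, -0.31 and -0.49 in the replication groups and at -0.72 and -0.83 in the S phase entry and mitosis lists.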

How the data were processed

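The deposited values are linear signal intensities of probe sets. The authors used GCOS on tumor samples and MAS5 on wild-type samples, versions not given, per the submitters' processing notes. The trimmed mean, leaving out 2% at each end, was 500 on every array, and each array was scaled to it again. GEO's platform annotation gave 34945 of 45101 probe sets 1 gene symbol, 932 several and 9160 none, and 64 were controls. Probe sets under 100 on more than 3 of the 6 arrays were left out, and the brightest passing one stood for its gene, which for all 42 measured members was also the brightest of all. Tests used limma 3.58.1 (lmFit and eBayes, 2-sided) in R 4.3.3 on log2(signal + 32), a scale that understates changes of dim genes. SE and intervals are limma's. The fit was also run on simulated data, drawn independently for each gene and array, to check that planted changes were recovered. Shifts shared by the genes of an array were not simulated. Tables used Python 3.11.15, pandas 2.3.3 and SciPy 1.17.1, and figures matplotlib 3.10.9. Values in every sample are given for called members, for the member with the smallest p in a role group without calls, and for Pcna, Mcm2 and Rrm2; other members shown in full were chosen after their values were seen. From each other list the 2 called genes with the largest change were named. The members and lists were chosen with earlier results of these data known. Nothing in the labels says that samples of a group came from separate animals or separate pools of animals, but the design text calls the tumors independent. The number of arrays, 3 per group, limits precision. Ccnb1, Cyp19a1 and Insl3 were not analysed here. The alternatives tried are listed with their effects in the closing section.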

Additional observations from a re-analysis of the deposited data

How the results depend on the processing

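Over 17 alternatives, the replication genes called higher stayed at 0. The number called lower was 5, and it was 0 with no filter on low signal (8 at an unadjusted p under 0.05 in limma), 1 with arrays scaled to their medians, 41 scaled to the hybridisation controls, and 0 to 6 without 1 sample. In the fit without the filter 18193 genes were adjusted for in place of 11611. For all genes, the lower and higher counts of 1468 and 1686 became 916 lower with the median scaling, 7544 lower and 416 higher with the hybridisation controls, and 662 to 1409 lower and 866 to 1704 higher without 1 sample. The lowest counts came without wild-type replicate 1, and wild-type replicate 3 also moved them by over 1.5 times (880 lower and 1092 higher). The 3 lists of other replication genes together had 20 lower and 5 higher. These became 12 and 2 without the filter, 11 lower with the median scaling, 61 lower and 0 higher with the hybridisation controls, and 6 to 19 lower and 2 to 4 higher without 1 sample. The cause of these shifts was not tested. The number of genes adjusted for differed in the fit without the filter, and the number of samples in the fits without 1 sample. Mcm3, Mcm10, Gins1, Pole, Rfc5, Tyms, Pcna, Mcm2 and Rrm2 were followed through the alternatives and kept their direction in every one they were run in. Mcm4 and Mcm6, above 0 in the main fit, were below 0 when scaled to the hybridisation controls, as were all 42 members. Mcm3, Mcm10, Gins1, Pole and Rfc5 lost their calls in 7, 8, 5, 8 and 7 of 17 alternatives, and Rrm2 passed with the mean of its passing probe sets (log2 fold change -1.06, limma adjusted p = 0.0287). Tyms passed with a pseudocount of 1 (adjusted p = 0.0493), and scaled to the hybridisation controls Tyms, Pcna, Mcm2 and Rrm2 all passed. Pseudocounts of 1 and 100, a filter at 200, quantile normalization, the mean of probe sets, every probe set tested and a trended robust prior gave 5 to 7 members lower.

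The replicate numbers are shared by both groups only as numbers: same-numbered samples' deviations from their group means correlated at -0.045, 0.028 and 0.09 across genes. With the replicate number as a block, 1 member was called lower and 0 higher.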
